A study of Mus musculus with 36 samples.

Results

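The data describe 10 mouse transcription factor genes known from mesenchymal cells, Prrx1, Prrx2, Twist1, Twist2, Zeb1, Zeb2, Snai1, Snai2, Zfp521 and Tcf4, on microarrays of tumour stroma. They were chosen by name, as regulators of the mesenchymal state, from the 17097 genes that the array annotation pairs with a probe set. Earlier results of these data were known when they were chosen. Together they had 22 of the 45141 probe sets, and each gene was represented by its brightest probe set, averaged over the 36 arrays. All 10 genes were measured, and all 10 passed the filter that left out the 25% of genes with the lowest mean level. The material was total RNA of the stromal cells labelled neural fraction, from human oral carcinoma cells grown orthotopically in NSG mice (NOD-SCIDγ, an immunodeficient strain). The tumour cells were SCC25, an established oral squamous carcinoma line of human origin, or cells labelled VDH15, an oral carcinoma line. The tumour cells carried either shCD36, an shRNA against the fatty acid receptor CD36, or PLKO, the name of a lentiviral shRNA vector, which the labels give for the tumours without shCD36. The hosts were fed a control diet or a diet enriched in palmitic acid (PA) or in oleic acid (OA). The first VDH15 experiment held PLKO tumours only, in 3 groups of 4 arrays on the control, PA and OA diets. In SCC25, as in the second VDH15 experiment, PLKO and shCD36 tumours were combined with control and PA diets, in 4 groups of 3 arrays. These 36 arrays form 11 groups, and the labels name each group 1 biological replicate and its arrays technical replicates. The labels do not say how many mice or tumours stand behind a group, nor the ages of the mice. Comparisons of PA with control diet in PLKO tumours therefore had n = 3 biological replicates, those with shCD36 had n = 2 and those with OA had n = 1.

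Mesenchymal cells such as fibroblasts are loosely attached, matrix-producing cells, and a small set of DNA-binding proteins is known to set or maintain their state. Snai1 and Snai2 (Snail and Slug) and Zeb1 and Zeb2 are zinc finger repressors known for binding E-boxes in promoters of epithelial genes such as Cdh1. Twist1 and Twist2 are basic helix-loop-helix proteins that bind E-boxes as dimers with E-proteins, and Tcf4 (E2-2, not the Wnt effector Tcf7l2) is 1 of these E-proteins. Prrx1 and Prrx2 are paired-related homeobox proteins of limb and craniofacial mesenchyme, and Prrx1 is known from fibroblasts. Zfp521 is a zinc finger protein known from mesenchymal, blood and neural progenitors. Several of these genes are also known outside fibroblasts: Tcf4 and Zeb1 from endothelial cells, Zeb2 from macrophages and Schwann cells, and Snai2 from basal keratinocytes.

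Promoter windows are shown for 4 genes. Prrx1, Twist2 and Zeb2 are those that rose on the palmitate diet among the genes whose windows were read, and the Snai1 window held an E-box. Each is the 250 bases upstream of an annotated RefSeq start on GRCm38.p6, printed 5′ to 3′ on the gene's strand, in lower case. Capitals mark CACCTG or its reverse complement CAGGTG, the E-box that Snail and Zeb proteins are known to bind.
Prrx1 (chr1:163313651-163313900, minus strand): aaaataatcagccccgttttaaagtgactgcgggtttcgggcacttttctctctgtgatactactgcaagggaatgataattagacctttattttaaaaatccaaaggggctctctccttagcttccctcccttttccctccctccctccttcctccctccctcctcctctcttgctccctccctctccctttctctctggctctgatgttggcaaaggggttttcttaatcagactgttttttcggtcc
Twist2 (chr1:91801211-91801460, plus strand): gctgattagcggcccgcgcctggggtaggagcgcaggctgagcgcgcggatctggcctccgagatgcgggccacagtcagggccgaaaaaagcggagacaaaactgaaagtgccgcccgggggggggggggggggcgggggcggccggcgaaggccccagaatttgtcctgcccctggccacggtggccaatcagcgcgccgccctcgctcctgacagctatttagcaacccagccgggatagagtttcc
Zeb2 (chr2:45117443-45117692, minus strand): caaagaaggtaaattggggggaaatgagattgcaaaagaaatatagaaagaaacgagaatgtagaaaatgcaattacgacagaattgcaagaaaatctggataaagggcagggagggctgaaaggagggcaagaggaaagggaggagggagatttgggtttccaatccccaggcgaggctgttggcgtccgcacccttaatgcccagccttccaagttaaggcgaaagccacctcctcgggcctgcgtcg
Snai1 (chr2:167537945-167538194, plus strand): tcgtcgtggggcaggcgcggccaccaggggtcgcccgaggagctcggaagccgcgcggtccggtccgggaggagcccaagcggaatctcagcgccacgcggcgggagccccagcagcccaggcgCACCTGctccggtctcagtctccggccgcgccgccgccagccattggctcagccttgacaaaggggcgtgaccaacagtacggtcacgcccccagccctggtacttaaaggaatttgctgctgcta
Windows were read for 6 of the 10 genes, 9 windows in all because Zeb2 has 4 starts. The Zeb2 windows at chr2:45113254-45113503 and chr2:45113280-45113529 overlap, so the 9 windows are not 9 separate stretches. No window was read for Zeb1, Snai2, Zfp521 or Tcf4. The motif counts therefore do not cover these genes, although Zfp521 and Tcf4 also rose on the palmitate diet. The CACCTG motif occurred once among them, in Snai1, with its first base 126 bases upstream of the start. Over 32851 mouse promoters searched in the same way on both strands, 17.2% held CACCTG. The general E-box CANNTG, of which CACCTG is 1 form, was in 66.2% of these promoters and in the Snai1 window only among the 9. The windows of Prrx1, Prrx2, Twist1, Twist2 and all 4 of Zeb2 held no CANNTG. The AP-1 motif TGANTCA (6.75% of promoters) occurred 2 times in a second Zeb2 window, at chr2:45110278-45110527. The TEAD motif GGAATG (12.6% of promoters) occurred once in that window and once in the Prrx1 window. GC content ranged from 47.6% in Prrx1 to 70% in Prrx2 and Snai1, against a median of 52.4% over all promoters. These matches describe letters in the windows and not bound sites.

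The values are log2 intensities as deposited, with array medians between 5.98 and 6.04. They had already been adjusted for the line of the tumour cells and for the batches of hybridisation and scanning, so levels are compared within an experiment and not between cell lines. Of the variance, 44.5% lay along principal component 1, where 3 arrays stood apart: PLKO PA replicates 1 and 2 of the first VDH15 experiment (53.2 and 50.1) and PLKO PA replicate 1 of the second (42.6). The other PLKO PA arrays scored between 13.8 and 23.2. The shRNA acted in human cells, so the mouse arrays do not check it. Markers of the labelled neural identity lay on both sides of the filter. Of 9 Schwann cell and glial markers measured, 6 passed it (Sox10, Pmp22, Erbb3, Ngfr, Ncam1 and L1cam), and S100b, Foxd3 and Gfap lay below. Of 10 neuron markers measured, 6 passed it (Tubb3, Elavl3, Stmn2, Prph, Uchl1 and Rbfox3), and Elavl4, Snap25, Nefl and Nefm lay below. The mean of the Schwann cell and glial markers ranged from 6.78 to 6.98 log2 over the 11 groups and that of neuron markers from 5.41 to 5.61. Fibroblast markers ranged from 7.64 to 9.04, endothelial markers from 7.75 to 9.72, macrophage and myeloid markers from 5.64 to 6.93 and keratinocyte markers from 9.12 to 10.04. These lists rest on different probe sets, so their levels are not set against each other. In such bulk RNA, fewer cells of a type and less RNA per cell cannot be told apart.

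The first comparison asked how the 10 genes differed between PA-rich and control diets in hosts of PLKO tumours. Of the 10, 5 rose: Prrx1, Zeb2, Tcf4, Twist2 and Zfp521, by 0.90 to 1.93 log2, and none fell. Of all 12823 genes tested, 6.92% changed and 3.65% rose at the same threshold, an adjusted p under 0.05 in limma (Benjamini-Hochberg over all genes). The median of the 10 genes was 0.92 log2 against −0.03 for all genes, and 8 of the 10 were higher in each of the 3 experiments. Because the 10 genes were chosen with earlier results of these data known, these counts describe them and are no independent support. In each of the 3 experiments, every PA array was above every control array for Prrx1, Zeb1, Zeb2, Zfp521 and Tcf4. The share of all genes with such non-overlapping, higher arrays was 17.2% in the first VDH15 experiment, 15.4% in SCC25 and 14.9% in the second VDH15 experiment, where 8, 9 and 6 of the 10 genes were separated in this way. The shares of all genes that were higher, or separated, in all 3 experiments at once were not counted. The opposite separation, every PA array lower, was seen for Snai2 in the first VDH15 experiment and for none of the 10 in the other 2, against 23.1%, 19.7% and 17.1% of all genes.

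**Figure D1:**
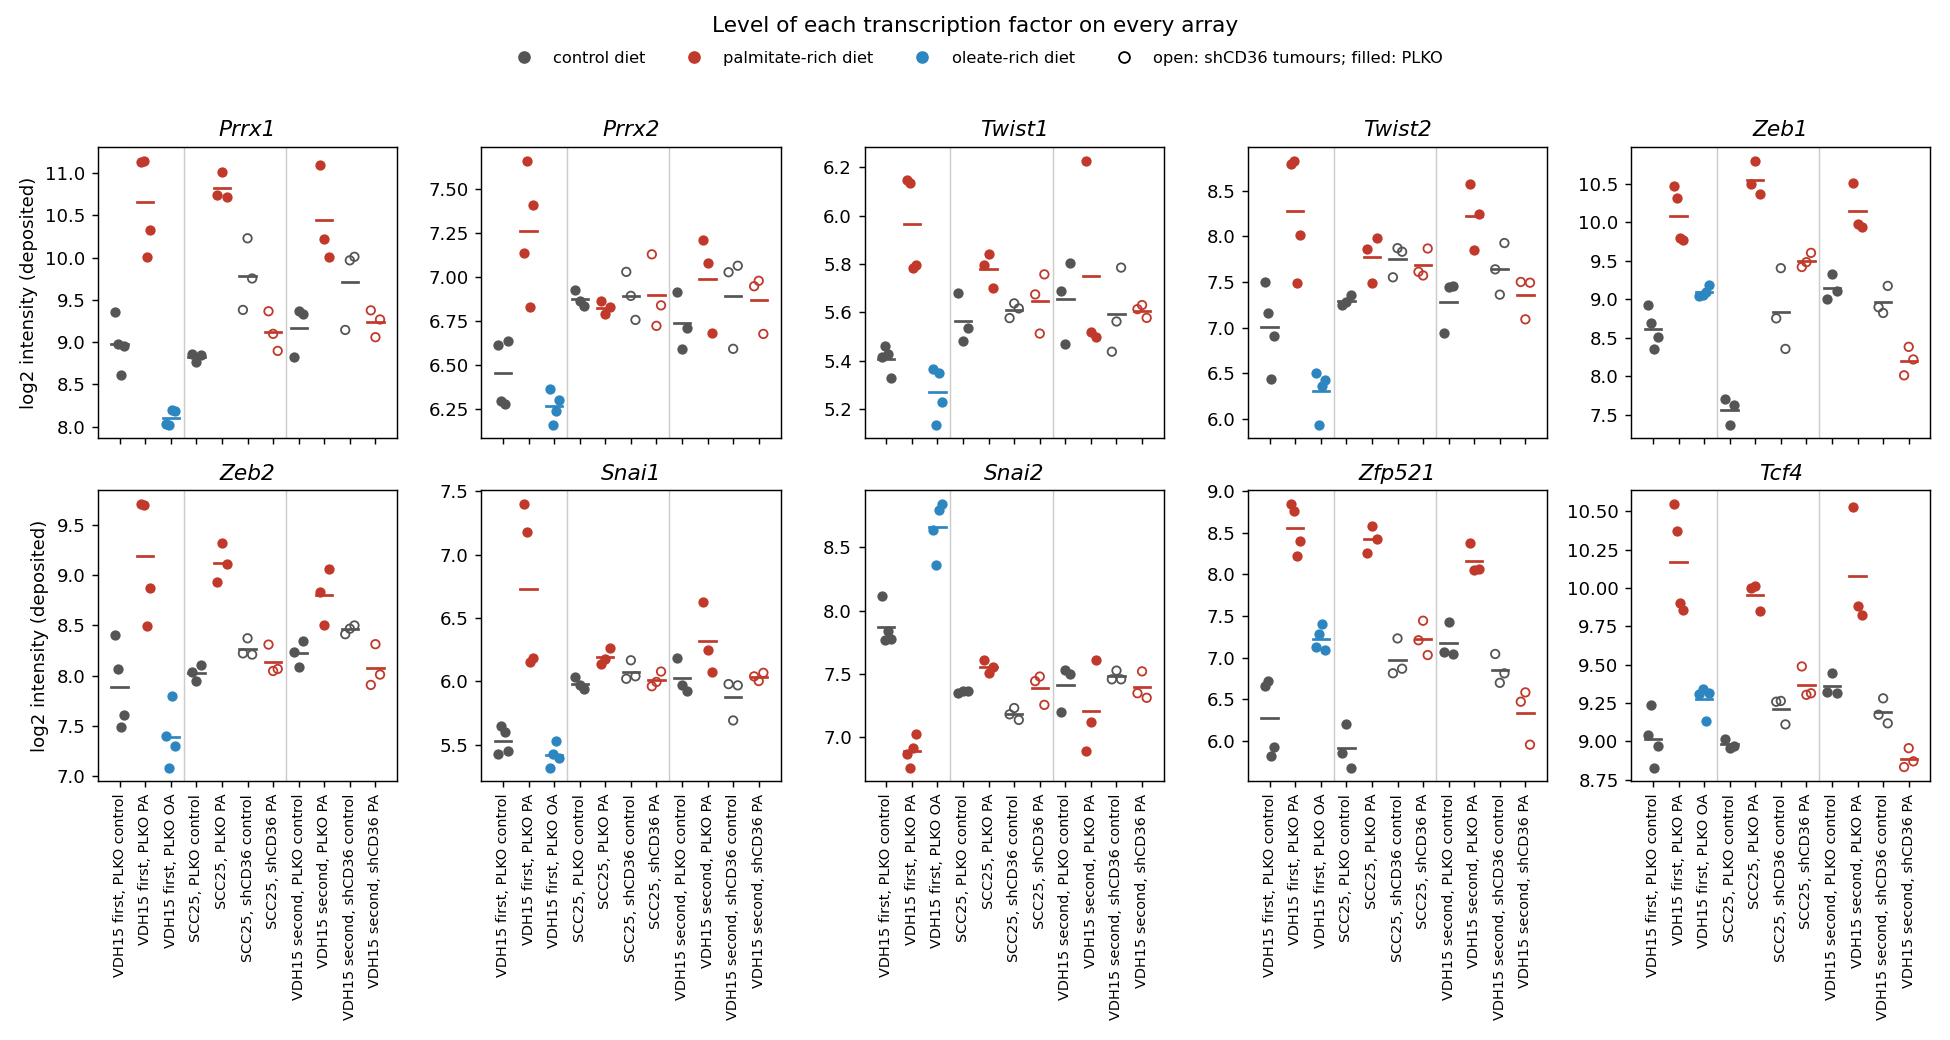
Level of each of the 10 transcription factors on all 36 arrays (log2 intensity as deposited), 1 panel per gene, with the 11 groups on the horizontal axis, points for arrays and bars for group means. Grey is the control diet, red the PA-rich and blue the OA-rich diet, and open points are shCD36 tumours. The red filled points of Prrx1 lie between 10.004 and 11.15 and all other Prrx1 arrays between 8.02 and 10.23, and Snai2 is the gene whose highest points are the blue ones.

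Prrx1 (probe set 1425526_PM_a_at), the homeobox gene known from fibroblasts, had the smallest p of the 10. In the first VDH15 experiment its level was 9.36, 8.98, 8.61 and 8.96 log2 on control diet and 11.14, 11.15, 10.004 and 10.33 on PA. In SCC25 it was 8.87, 8.77 and 8.85 on control and 10.74, 11.01 and 10.72 on PA. In the second VDH15 experiment it was 8.82, 9.36 and 9.33 on control and 11.10, 10.22 and 10.01 on PA. Every PA array was thus above every control array, with a gap of 0.65, 1.85 and 0.64 in the 3 experiments. The Prrx1 level rose 3.13-fold, or 1.65 log2 with an SE of 0.13 (n = 3, adjusted p = 0.00628). Its paralogue Prrx2 (1432331_PM_a_at) was 0.34 ± 0.15 log2 higher on PA (adjusted p = 0.206), which did not pass the test. Prrx2 differed by 0.81 in the first VDH15 experiment, −0.05 in SCC25 and 0.25 in the second VDH15 experiment, so only the first of them separated its arrays.

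The 2 Zeb genes, repressors of epithelial genes, were both higher on PA in every experiment, and Zeb2 passed the test. Zeb2 (1422748_PM_at) read 8.40, 8.07, 7.48 and 7.61 log2 on control and 9.72, 9.70, 8.50 and 8.88 on PA in the first VDH15 experiment. In SCC25 it read 8.03, 7.95 and 8.10 on control and 8.94, 9.33 and 9.11 on PA. In the second VDH15 experiment it read 8.24, 8.08 and 8.35 on control and 8.84, 8.50 and 9.06 on PA. The arrays did not overlap in any of the 3, although the gap was small in both VDH15 experiments. Zeb2 rose by 0.99 ± 0.14 log2 (SE, n = 3, adjusted p = 0.0200). Zeb1 (1418926_PM_at) read 8.92, 8.69, 8.36 and 8.52 on control and 10.47, 10.32, 9.80 and 9.77 on PA in the first VDH15 experiment. In SCC25 it read 7.71, 7.37 and 7.63 against 10.50, 10.80 and 10.36, and in the second VDH15 experiment 9.01, 9.33 and 9.11 against 10.52, 9.98 and 9.94. Zeb1 thus differed most between experiments, by 2.98 log2 in SCC25 and by 1.47 and 1.00 in the VDH15 experiments. Its mean difference of 1.82 ± 0.48 log2 (SE, n = 3) was larger than that of Prrx1 but did not pass the test (adjusted p = 0.0673).

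Of the Twist genes, partners of E-proteins, Twist2 (probe set 1448925_PM_at) gained 0.90 log2 on PA with an SE of 0.17 and n = 3 (adjusted p = 0.0350). On control diet it read 7.50, 7.17, 6.44 and 6.91 in the first VDH15 experiment, 7.25, 7.28 and 7.36 in SCC25 and 6.94, 7.44 and 7.46 in the second VDH15 experiment. On PA it read 8.79, 8.83, 7.49 and 8.01, then 7.86, 7.49 and 7.98, then 8.57, 7.85 and 8.24. Its arrays overlapped in the first VDH15 experiment, where PA replicate 3 lay below control replicate 1, and did not in the other 2. Twist1 (1418733_PM_at) read between 5.13 and 6.23 log2 over all arrays and was 0.29 ± 0.09 log2 higher on PA (adjusted p = 0.113).

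The 2 Snail genes went different ways and neither passed the test. Snai1 (1448742_PM_at), Snail, was 0.57 ± 0.19 log2 higher on PA (SE, n = 3, adjusted p = 0.117). It read 5.42, 5.65, 5.60 and 5.45 on control and 7.40, 7.18, 6.15 and 6.18 on PA in the first VDH15 experiment, a difference of 1.20, against 0.21 in SCC25 and 0.29 in the second VDH15 experiment. The 2 highest Snai1 arrays were 2 of the 3 arrays that stood apart on the first principal component. Snai2 (1418673_PM_at), Slug, was the 1 gene of the 10 with a negative difference, −0.33 ± 0.21 log2 (adjusted p = 0.383). It read 8.12, 7.76, 7.83 and 7.78 on control and 6.87, 6.75, 6.91 and 7.03 on PA in the first VDH15 experiment, where every PA array was lower. In SCC25 it read 7.34, 7.36 and 7.36 on control and 7.61, 7.51 and 7.55 on PA, where every PA array was higher. The arrays overlapped in the second VDH15 experiment (7.20, 7.53 and 7.50 on control, 6.89, 7.12 and 7.61 on PA).

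Zfp521 and Tcf4 both rose. Zfp521 (1451332_PM_at) read 6.65, 6.72, 5.82 and 5.92 log2 on control and 8.85, 8.76, 8.23 and 8.40 on PA in the first VDH15 experiment. In SCC25 it read 5.85, 6.20 and 5.67 against 8.26, 8.59 and 8.43, and in the second VDH15 experiment 7.07, 7.42 and 7.05 against 8.37, 8.05 and 8.06. In each experiment every PA array of Zfp521 in PLKO tumours was above every control array. Zfp521 rose by 1.93 ± 0.37 log2 (SE, n = 3, adjusted p = 0.0351), 3.80-fold. The E-protein gene Tcf4 (1424089_PM_a_at) read 9.04, 9.23, 8.83 and 8.97 on control and 10.55, 10.37, 9.90 and 9.86 on PA in the first VDH15 experiment. In SCC25 it read 9.02, 8.96 and 8.97 against 9.997, 10.012 and 9.852, and in the second VDH15 experiment 9.32, 9.44 and 9.31 against 10.53, 9.88 and 9.82. Tcf4 differed by a similar amount in the 3 experiments, 1.15, 0.97 and 0.72 log2, and rose by 0.95 ± 0.16 (SE, n = 3, adjusted p = 0.0280).

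**Figure D2:**
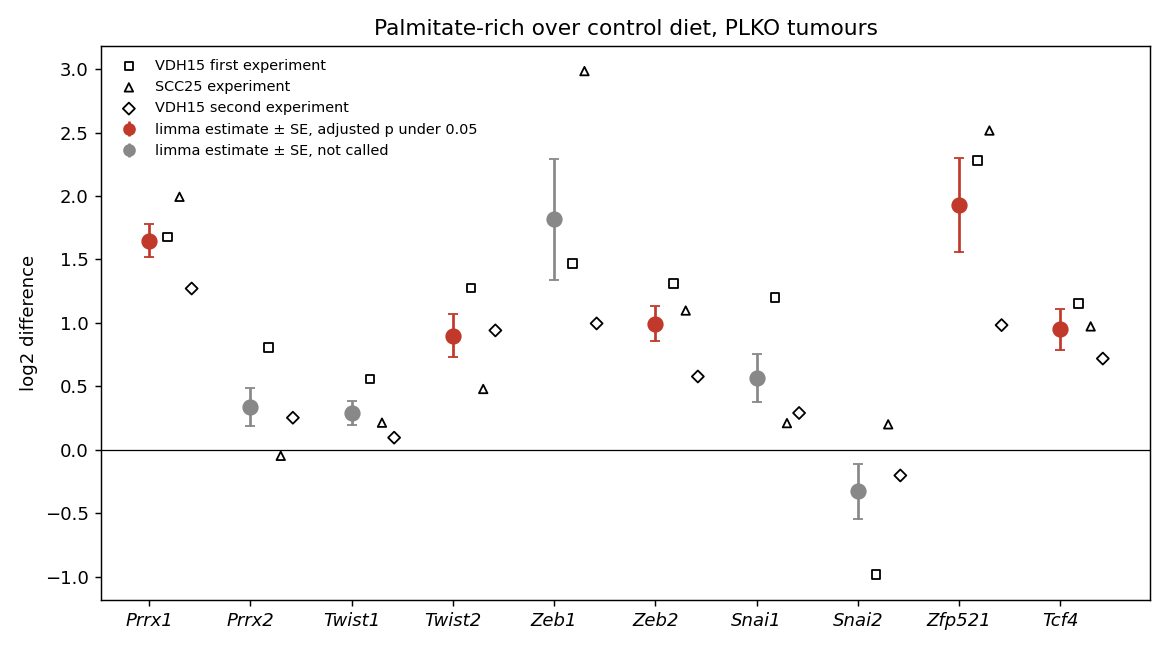
Log2 difference between PA-rich and control diets in PLKO tumours for each of the 10 genes: filled circles are limma estimates with the SE (n = 3 biological replicates), red where the adjusted p was under 0.05, and open symbols are the differences of group means in the 3 experiments. Zeb1 has the widest spread of experiments, from 1.00 to 2.98, and Snai2 and Prrx2 have symbols on both sides of 0.

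The 5 calls rest on all 3 experiments together. Without the first VDH15 experiment Prrx1 alone passed (1.63 log2, adjusted p = 0.0221), and without SCC25 or without the second VDH15 experiment none of the 10 passed, with 0 genes called over all genes in both cases and Prrx1 at 1.47 and 1.84. Without PLKO PA replicate 1 of the second VDH15 experiment 3 of the 10 passed, Twist2 and Zfp521 missing the threshold at adjusted p = 0.0501 and 0.0509. Without the 3 arrays that stood apart all 5 passed, with Prrx1 at 1.38, Zeb2 at 0.82, Twist2 at 0.66, Zfp521 at 1.81 and Tcf4 at 0.78 log2. In the first VDH15 experiment, whose arrays were scanned in 2 batches with 2 arrays of each diet, Prrx1 was higher on PA by 1.75 in scan batch 2 and 1.61 in scan batch 3. The same differences were 1.36 and 1.26 for Zeb2, 1.43 and 1.12 for Twist2, 2.39 and 2.17 for Zfp521 and 1.27 and 1.04 for Tcf4.

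Other probe sets of the same genes were read in a fit over 20515 probe sets, of which 3.78% rose. Of the other Prrx1 probe sets, 1425528_PM_at (1.66 ± 0.12 log2, adjusted p = 0.00575) and 1432129_PM_a_at (1.42 ± 0.19, adjusted p = 0.0183) rose and 1425527_PM_at (0.94 ± 0.23, adjusted p = 0.0581) did not pass. Both other Tcf4 probe sets rose, by 0.97 ± 0.13 and 1.05 ± 0.15 log2 (adjusted p = 0.0186 and 0.0195). For Zeb1, 1446127_PM_at gave 1.63 ± 0.38 (adjusted p = 0.0505) and 1443005_PM_at 0.34 ± 0.11 (adjusted p = 0.108). The second Zfp521 probe set, 1439909_PM_at, gave 0.50 ± 0.16 (adjusted p = 0.0985) against 1.93 for the one that stood for the gene, so the size of the Zfp521 difference depends on the probe set. The second tested Zeb2 probe set, 1454200_PM_at, gave 0.86 ± 0.24 (adjusted p = 0.0796). The other 3 probe sets, 1 of Prrx1 and 2 of Zeb2, lay below the filter.

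Genes connected to the 10 were read from lists over the same PA contrast in PLKO tumours. The lists were written with earlier results of these data known, so their counts are descriptions and no independent support. Among E-proteins and their Id inhibitors, none of 6 passed the test. Id4 (−0.48 ± 0.12 log2, adjusted p = 0.0568) and Id1 (−0.49 ± 0.18, adjusted p = 0.144), which bind E-proteins and keep them from DNA, had the smallest p. Id3 (0.14 ± 0.14, adjusted p = 0.586) and Tcf3 (−0.07 ± 0.06, adjusted p = 0.502), an E-protein like Tcf4, were closer to 0. Of 34 other mesenchymal and fibroblast transcription factors tested, 7 rose and 1 fell, with a median of 0.17 log2. Among all genes 3.65% rose and 3.27% fell. The YAP-related coactivator Wwtr1 (0.64 ± 0.10, adjusted p = 0.0256), Ebf1 (1.51 ± 0.27, adjusted p = 0.0294) and Ebf3 (0.44 ± 0.08, adjusted p = 0.0290) rose, and Dlx5 fell by 0.45 ± 0.07 log2 (adjusted p = 0.0272).

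Epithelial genes known as targets of Snail and Zeb repression had a median of −0.48 log2, and 4 of 21 fell and none rose. Among all genes 3.27% fell. Keratinocyte markers were lower alongside for 10 of 11 (median −0.43), and their part in these falls was not tested. Cdh1 was not among the 4 targets that fell. The small GTPase gene Rab25 fell by 1.19 ± 0.15 log2 (adjusted p = 0.0175), the tight junction gene Cldn4 by 1.15 ± 0.17 (adjusted p = 0.0213), the polarity gene Crb3 by 0.74 ± 0.16 (adjusted p = 0.0428) and Llgl2 by 0.48 ± 0.07 (adjusted p = 0.0189). Of 11 epithelial transcription and splicing factors, 5 fell and none rose, among them Grhl3 (−1.21 ± 0.14, adjusted p = 0.0158), Grhl1 (−0.86 ± 0.13, adjusted p = 0.0213), Elf3 (−1.15 ± 0.19, adjusted p = 0.0271) and Esrp2 (−0.69 ± 0.11, adjusted p = 0.0271). Of 20 mesenchymal effector genes measured, Cdh2 and Col1a2 lay below the filter. Of the 18 tested, 9 rose, against 3.65% of all genes, and none fell, with a median of 1.18 log2. The integrin gene Itga5 (1.07 ± 0.09, adjusted p = 0.00628), the matrix gene Postn (1.56 ± 0.19, adjusted p = 0.0171), S100a4 (0.89 ± 0.11, adjusted p = 0.0174) and the collagen cross-linking enzyme gene Lox (2.15 ± 0.30, adjusted p = 0.0199) had the smallest p among them.

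Cell type markers moved with the 10 genes in the same contrast. The marker with the smallest p is given for each list. Of all genes tested, 3.65% rose and 3.27% fell in this contrast. Of 13 fibroblast markers tested 7 rose and none fell (median 0.88 log2), with Serpinf1 at 1.78 ± 0.23 (adjusted p = 0.0175), and the defining marker Pdgfra lay below the filter. Of 12 endothelial markers 5 rose and none fell (median 1.41), with Sox18 at 0.97 ± 0.15 (adjusted p = 0.0218). Of 9 macrophage markers 2 rose and none fell (median 0.83), with Cd14 at 1.24 ± 0.14 (adjusted p = 0.0158), with Adgre1, Itgam and Ptprc below the filter. Of 11 keratinocyte markers 4 fell and none rose (median −0.43), with Krt10 at −1.76 ± 0.29 (adjusted p = 0.0261). The other marker lists had medians of smaller size. Of 7 pericyte markers 1 rose (median 0.33), Mcam at 0.883 ± 0.135 (adjusted p = 0.0241). Of 6 Schwann and glial markers (median −0.06) 1 fell, L1cam at −0.57 ± 0.06 (adjusted p = 0.0146), and 1 rose, Ncam1 at 0.84 ± 0.17 (adjusted p = 0.0404). Of 6 neuron markers 1 fell (median 0.03), Tubb3 at −1.16 ± 0.14 (adjusted p = 0.0171). None of 3 adipocyte (median 0.13) or 6 skeletal muscle markers (median −0.02) passed. Smallest in p there were Fabp4 (1.44 ± 0.46, adjusted p = 0.103) and Acta1 (−0.20 ± 0.09, adjusted p = 0.216). The part of these cell types in the differences of the 10 genes and of the connected genes above was not tested.

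The next comparisons asked whether the diet difference was seen in tumours with shCD36. In shCD36 tumours none of the 10 genes passed the test between PA and control diets, as for all genes (0%), by limma with n = 2. At an unadjusted p under 0.05 there were 282 genes, 1 of them among the 10. With arrays as units and the group as a random block, 7 genes were called over all genes and none of the 10. Prrx1 was the gene of the 10 below that p, and it was lower on PA by 0.57 ± 0.16 log2 (SE, adjusted p = 1.00). Its arrays read 9.38, 10.23 and 9.75 on control and 9.37, 9.10 and 8.90 on PA in SCC25. In the second VDH15 experiment they read 9.14, 9.97 and 10.01 on control and 9.38, 9.06 and 9.27 on PA, so the arrays overlapped there. The other 9 genes differed by −0.26 (Zeb2) to 0.06 (Snai2) log2, with 95% intervals such as −0.67 to 0.15 for Zeb2, −0.54 to 0.40 for Tcf4 and −1.21 to 0.95 for Zfp521. In SCC25, 3 of the 10 genes (Zeb1, Snai2 and Tcf4) had every PA array above every control array and 1 (Prrx1) had every PA array below, against 14.6% and 8.13% of all genes. Within the second VDH15 experiment Snai1 was separated upward and Zeb1, Zeb2, Zfp521 and Tcf4 downward, 1 and 4 of the 10 against 8.03% and 12.3% of all genes.

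On PA diet, 1 of the 10 genes fell and none rose in shCD36 against PLKO tumours, where 0.374% of all genes changed, 0.234% upward and 0.14% downward. Prrx1 fell by 1.46 ± 0.15 log2 (SE, n = 2, adjusted p = 0.0314), 2.75-fold. Its 6 shCD36 arrays on PA lay between 8.90 and 9.38 and its 6 PLKO arrays on PA in the same experiments between 10.01 and 11.10, so they did not overlap. Without the 3 arrays that stood apart, Prrx1 was lower by 1.24 (adjusted p = 0.0883). Without SCC25 it was lower by 1.31 (adjusted p = 0.203), and without the second VDH15 experiment by 1.62 (adjusted p = 0.662). Without PLKO PA replicate 1 of the second VDH15 experiment alone it was lower by 1.33 (adjusted p = 0.124). The differences of Zeb2 (−0.93 ± 0.16, adjusted p = 0.0775), Tcf4 (−0.94 ± 0.19, adjusted p = 0.0896), Zfp521 (−1.60 ± 0.43, adjusted p = 0.138), Twist2 (−0.57 ± 0.20, adjusted p = 0.203) and Zeb1 (−1.41 ± 0.56, adjusted p = 0.249) did not pass. For 6 genes, Prrx1, Zeb1, Zeb2, Snai1, Zfp521 and Tcf4, every shCD36 array on PA was below every PLKO array on PA in both experiments. In SCC25 and in the second VDH15 experiment, 7 of the 10 genes were separated in this direction, against 12.5% and 19% of all genes. None of the 10 was separated in the other direction, against 16.3% and 20.5% of all genes. The share of all genes separated downward in both experiments at once was not counted. This comparison and the one of diets share the PLKO arrays on PA. Cell type markers differed alongside. Lower with shCD36 were 12 of 12 endothelial (median −1.12), 11 of 13 fibroblast (−0.62) and 8 of 9 macrophage markers (−0.21). Higher were 10 of 11 keratinocyte markers (0.24), and no marker of these lists passed the test. Of 6 Schwann cell and glial markers 1 rose, L1cam by 0.62 ± 0.07 log2 (adjusted p = 0.0382), and none fell. The part of all these markers in the differences was not tested.

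The shCD36 arrays on PA show how far apart the groups were. Zeb2 read 8.31, 8.04 and 8.06 in SCC25 and 7.91, 8.31 and 8.01 in the second VDH15 experiment, all below the PLKO arrays on PA given above. Tcf4 read 9.49, 9.30 and 9.31 in SCC25 and 8.83, 8.96 and 8.87 in the second VDH15 experiment. Zfp521 read 7.21, 7.44 and 7.03, and 6.47, 6.58 and 5.95. In the second VDH15 experiment Tcf4 and Zfp521 on PA with shCD36 were thus below the PLKO control arrays, while in SCC25 they were above them. Zeb1 had the same order: 9.42, 9.48 and 9.61 in SCC25 against PLKO control arrays of at most 7.71, and 8.01, 8.38 and 8.22 in the second VDH15 experiment against PLKO control arrays of at least 9.01.

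On control diet none of the 10 genes passed the test between shCD36 and PLKO tumours, and 0% of all genes did, with 435 genes at an unadjusted p under 0.05 by limma (n = 2), 2 of them among the 10. With arrays as units and the group as a random block 35 genes were called, none of the 10. Those 2 were Prrx1 (0.76 ± 0.15 log2 higher with shCD36, adjusted p = 0.960) and Twist2 (0.50 ± 0.20, adjusted p = 0.991). Prrx1 arrays read 9.38, 10.23 and 9.75 with shCD36 against 8.87, 8.77 and 8.85 with PLKO in SCC25, where they did not overlap. They overlapped in the second VDH15 experiment. All 10 genes but Snai2 (−0.22) had a positive estimate. So did 12 of 12 endothelial (median 0.29), 11 of 13 fibroblast (0.34) and 9 of 9 macrophage markers (0.22), none past the test, and their part was not tested. In SCC25, 6 of the 10 genes (Prrx1, Twist2, Zeb1, Zeb2, Zfp521 and Tcf4) had every shCD36 array above every PLKO array, against 13.1% of all genes, and Snai2 had every one below, against 18%. Within the second VDH15 experiment Zeb2 alone was separated upward, against 10.2% of all genes, and Zfp521 and Tcf4 downward, against 9.94%.

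The difference of the diet effect between shRNAs was tested directly. None of the 10 genes, and 0% of all genes, passed by limma (n = 2); 2011 genes had an unadjusted p under 0.05, 6 of the 10 among them. With arrays as units and the group as a random block, 1052 genes were called, 5 of them among the 10. The labels name these arrays technical replicates, so that fit adds no biological replicates. Prrx1 came closest: its PA difference was 2.22 ± 0.21 log2 smaller with shCD36 than with PLKO (adjusted p = 0.0516). The values for Zeb2 (−1.25 ± 0.22, adjusted p = 0.0989), Tcf4 (−1.02 ± 0.25, adjusted p = 0.164), Twist2 (−1.07 ± 0.27, adjusted p = 0.171), Zfp521 (−2.06 ± 0.59, adjusted p = 0.202) and Zeb1 (−1.86 ± 0.76, adjusted p = 0.311) pointed the same way. Within SCC25 the PA difference of Prrx1 was 1.99 with PLKO and −0.67 with shCD36, and within the second VDH15 experiment 1.27 and −0.47. For Zfp521 these were 2.52 and 0.26, and 0.98 and −0.52. Cell type markers moved alongside: endothelial markers had a median of −1.48 log2 in this difference, with 12 of 12 negative, fibroblast markers −0.92 with 11 of 13 negative, and keratinocyte markers 0.57 with 10 of 11 positive, and none of these markers passed the test. Their part in the differences was not tested.

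**Figure D3:**
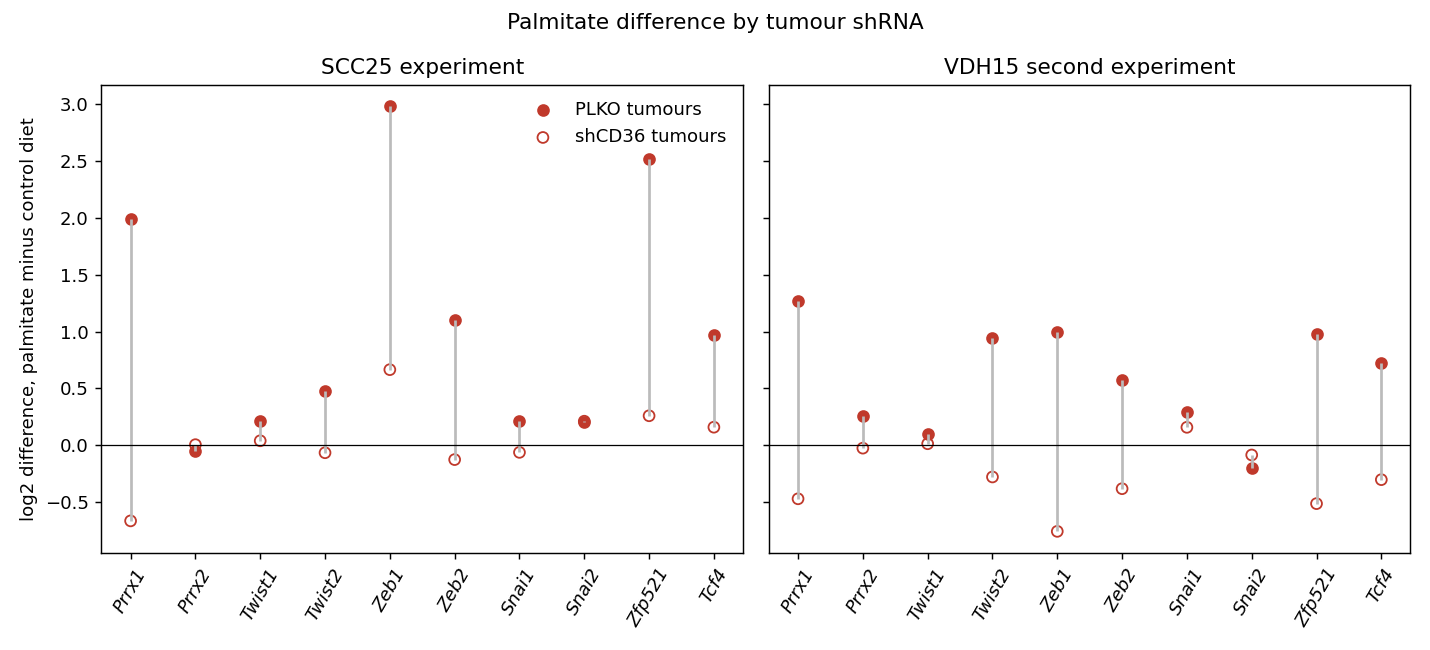
Difference between PA-rich and control diets (log2, difference of group means of 3 arrays each) for the 10 genes in PLKO tumours (filled) and shCD36 tumours (open), in SCC25 and in the second VDH15 experiment. For Prrx1 the filled points are at 1.99 and 1.27 and the open points at −0.67 and −0.47, while Snai2, Twist1 and Prrx2 have both points near each other.

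The OA-rich diet was given in the first VDH15 experiment only, so its comparisons have n = 1 and take their spread from the whole fit. OA over control diet gave no call among the 10 and 0% over all genes, with 225 genes at an unadjusted p under 0.05 by limma, 4 of them among the 10. With arrays as units and the group as a random block no gene was called either. The 4 were Prrx1 (−0.88 ± 0.21 log2), Twist2 (−0.89 ± 0.27), Zeb2 (−0.66 ± 0.22) and Snai2 (1.11 ± 0.34), each with an adjusted p of 1.00. Prrx1 on OA read 8.03, 8.02, 8.20 and 8.18, all below its control arrays, a separation seen in 9.06% of all genes. Snai2 on OA read 8.64, 8.36, 8.79 and 8.85, all above its control arrays, a separation seen in 6.54% of all genes. Zfp521 (7.12, 7.28, 7.40 and 7.09) and Zeb1 (9.04, 9.05, 9.10 and 9.18) were also above all their control arrays, so the 10 genes did not share 1 direction on OA. Tcf4 on OA (9.31, 9.34, 9.13 and 9.31) overlapped with control. Endothelial markers were higher on OA for 12 of 12 (median 0.82) and fibroblast markers lower for 10 of 13 (median −0.28), with none past the test. Their part in these differences was not tested.

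Against OA, 1 of the 10 genes rose on PA, against 0.039% of all genes. Prrx1 rose by 2.53 ± 0.21 log2 (SE, n = 1, adjusted p = 0.0473), 5.78-fold, with the spread taken from the other groups since the diet has 1 biological replicate. This call is lost under several alternatives. The difference was 2.15 without the 3 arrays that stood apart (adjusted p = 0.0908), 2.44 without SCC25 (adjusted p = 0.501), 2.63 without the second VDH15 experiment (adjusted p = 0.281) and 2.53 with robust eBayes (adjusted p = 0.0527). Leaving out 1 array also lost it in 8 of the 36 cases. In the first VDH15 experiment these were PLKO control replicate 1 (adjusted p = 0.0692) and PLKO PA replicates 3 and 4 (0.0557 and 0.0596). In SCC25 they were PLKO PA replicate 1 (0.05 after rounding) and shCD36 control replicate 1 (0.0578). Those of the second VDH15 experiment were PLKO control replicate 1 (0.0827), PLKO PA replicate 1 (0.146) and shCD36 control replicate 2 (0.0573). Within the experiment, 9 of the 10 genes had every PA array above every OA array, as did 15.9% of all genes, and Snai2 had every PA array below every OA array, as did 20.5%. The differences of Twist2 (1.79 ± 0.27, adjusted p = 0.121), Zeb2 (1.65 ± 0.22, adjusted p = 0.111), Snai1 (1.00 ± 0.30, adjusted p = 0.297) and Snai2 (−1.44 ± 0.34, adjusted p = 0.220) did not pass. On PA 12 of 13 fibroblast (median 1.35), 11 of 12 endothelial (0.68) and 9 of 9 macrophage markers (0.92) were higher than on OA and 10 of 11 keratinocyte markers lower (−0.54), with none past the test. Their part in these differences was not tested.

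The order of each gene's group means across experiments describes the adjusted values and not the cell lines. The range of group means was 2.71 log2 for Prrx1, 2.98 for Zeb1, 2.65 for Zfp521, 1.97 for Twist2, 1.81 for Zeb2, 1.77 for Snai2, 1.31 for Snai1, 1.29 for Tcf4, 1.00 for Prrx2 and 0.70 for Twist1, against a median of 0.37 over all genes tested. Among the ranges of all genes tested, that of Twist1 was at percentile 78.8, that of Prrx2 at 88.3 and those of the other 8 between 92.7 and 99.6. The 3 PLKO groups on PA held the 3 highest means of every gene but Prrx2 and Snai2. For Prrx1 these were SCC25 (10.82 ± 0.16, SD of 3 arrays), the first VDH15 experiment (10.65 ± 0.58, SD of 4 arrays) and the second (10.44 ± 0.58, SD of 3 arrays). Prrx1, Prrx2, Twist1, Twist2, Zeb2 and Snai1 were lowest in the OA group, at 8.11 ± 0.10 for Prrx1. Zeb1 and Zfp521 were lowest in SCC25 PLKO tumours on control diet, at 7.57 ± 0.18 and 5.91 ± 0.27, and Tcf4 in shCD36 tumours on PA of the second VDH15 experiment, at 8.89 ± 0.06. Snai2 ran the other way, highest in the OA group (8.66 ± 0.22) and lowest on PA in the same experiment (6.89 ± 0.11).

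The 10 genes fell into patterns across the groups, described here by Pearson r over 11 group means without a test, since groups of an experiment share mice of 1 strain, array batches and the adjustment of the deposited values. Zeb1, Zfp521 and Tcf4 followed each other (0.96 for Zeb1 with Zfp521, 0.96 for Zfp521 with Tcf4). Prrx1 followed Zeb2 (0.97), and Twist1 followed Snai1 (0.98). Snai2 was inverse to Prrx2 (−0.94). For each gene, the 95th percentile of r with all genes lay between 0.76 and 0.88.

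The same patterns were seen against marker means. Zfp521 (0.99), Zeb1 (0.98) and Tcf4 (0.94) followed the mean of the 12 endothelial markers, while Prrx1 (0.66) and Zeb2 (0.66) followed it less closely. Prrx1 (0.97) and Zeb2 (0.92) followed the mean of the 15 fibroblast markers. Zfp521 (0.80), Tcf4 (0.79) and Zeb1 (0.78) were also positive with that mean. Snai1 (0.95) and Twist1 (0.93) followed the mean of the 12 macrophage markers. Prrx2 (0.88), Twist2 (0.86), Zeb2 (0.85) and Prrx1 (0.80) were also positive with the macrophage mean, so the patterns were not exclusive. Against the 12 keratinocyte markers Tcf4 (−0.97) and Zfp521 (−0.96) were inverse. A correlation of means over 11 groups does not place a gene in a cell type.

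**Figure D4:**
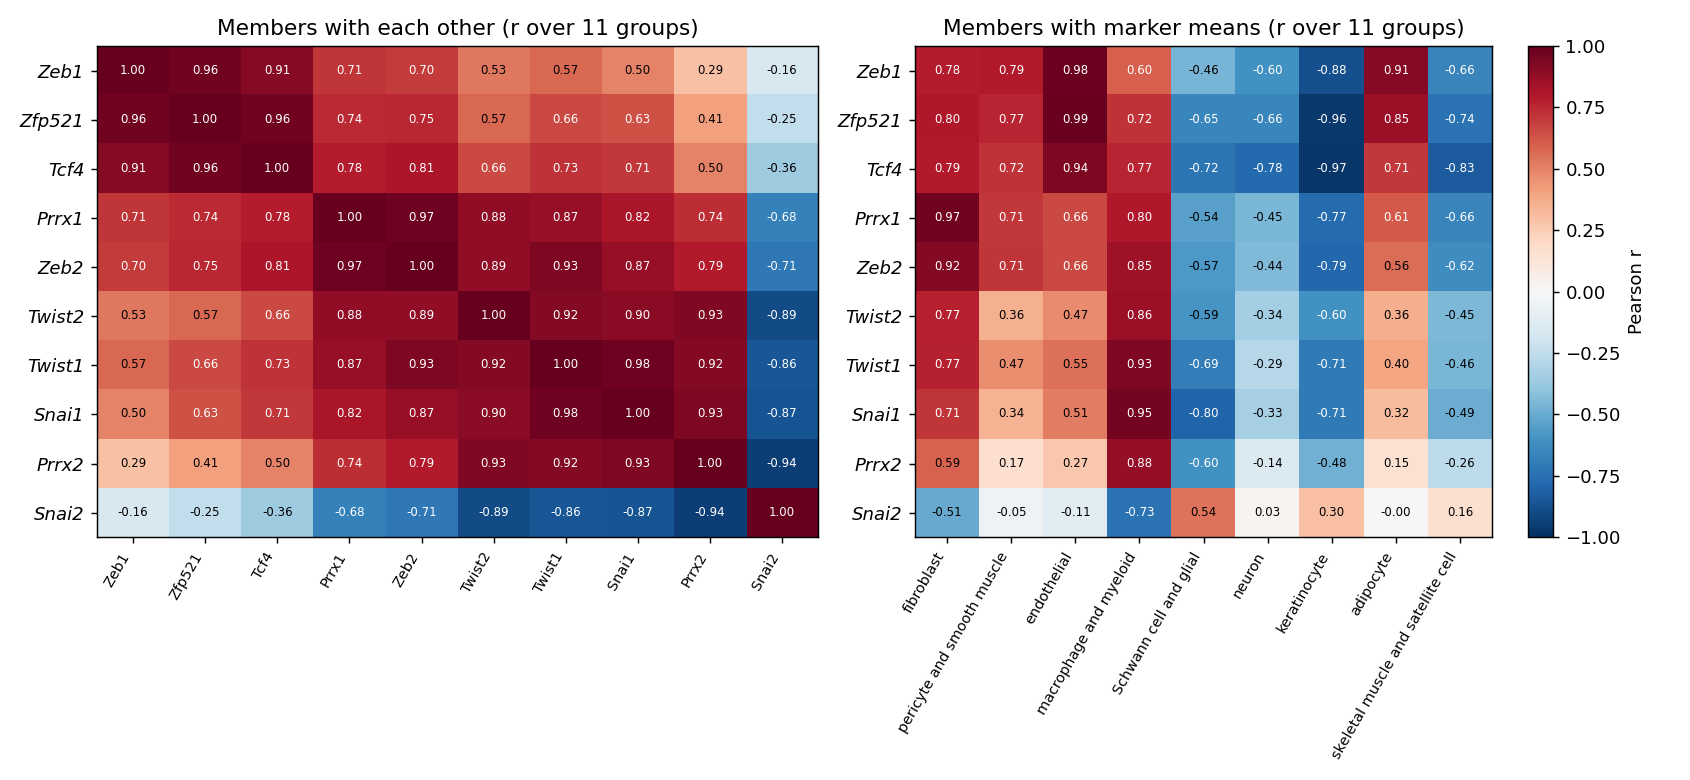
Pearson r over the 11 group means between the 10 genes (left) and between each gene and the mean level of 9 marker lists (right), on a scale from −1 (blue) to 1 (red). Zeb1, Zfp521 and Tcf4 form a block with r of 0.91 to 0.96 and have their highest values with endothelial markers, and Snai2 is negative with all 9 other genes.

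The genes most like each member by the same r were read by a fixed rule, the 3 highest with an established name. Prrx1 was most like Meg3, a long noncoding RNA (0.987), Vasn (0.986) and the collagen gene Col6a2 (0.985), and these 3 rose on PA by 1.30, 1.09 and 1.24 log2 in PLKO tumours. Zeb2 was most like Zfp146 (0.990), the lysyl oxidase-like gene Loxl3 (0.984) and Selenom (0.983). Zeb1 was most like the basement membrane collagen gene Col4a2 (0.992), Cd200 (0.992) and the endothelial cadherin gene Cdh5 (0.990). Zfp521 was most like Dysf (0.992), the endothelial receptor gene Eng (0.991) and Ripor1 (0.990), and Tcf4 was most like Fbln5 (0.991), Afap1l1 (0.991) and Pnp (0.990). Twist1 was most like Gpx7 (0.993), the collagen prolyl hydroxylase gene P3h1 (0.992) and Maged2 (0.990). Snai1 was most like Hic1 (0.996), P3h1 (0.994) and P3h3 (0.992), so Twist1 and Snai1 shared P3h1. Twist2 was most like Cfap69 (0.977), the zinc transporter gene Slc39a13 (0.967) and Tgfb2 (0.964), and Prrx2 was most like Il13ra2 (0.987), Prokr2 (0.986) and Epha3 (0.986). Snai2 was most like Cic (0.954), the epithelial transcription factor gene Klf5 (0.937) and Ccdc43 (0.936).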

How the data were processed

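Gene expression was measured on 36 mouse Affymetrix arrays. The authors' deposited values are log2 intensities; the submitters' processing notes name RMA and the affy package. In these values, terms for cell line and for the batches of hybridisation and scanning had coefficients below 1e-06 in 100% of probe sets with diet and shRNA in the model, against 0.00222% without, so no further correction preceded the fit. The experiment, which coincides with hybridisation batch, was kept as a term of the model.

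Of 45141 probe sets, the platform annotation gave 29449 a gene, of which 551 carried several and were left out; 28689 of the other 28898 were matched to a gene. The highest-mean probe set stood for a gene. Of 17097 genes, the 25% with the lowest means (under 5.19 log2) were left out, leaving 12823. Each group entered as the average of its arrays. A limma model (version 3.58.1, R 4.3.3) took the 11 averages, with fixed terms for experiment and condition (4 residual and 2.70 prior degrees of freedom). Because the first VDH15 experiment enters with PLKO groups only, estimates can differ from differences within experiments. An adjusted p (Benjamini-Hochberg) under 0.05 was called. Figures used Python 3.11.15 and matplotlib 3.10.9.

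Arrays of a group labelled technical replicates are no biological replicates, so p-values rest on 1 to 3 averages a side. Promoters came from RefSeq on GRCm38.p6. For each list of connected genes the 4 with the smallest unadjusted p were named, and for each cell type list at least the 1 with the smallest. For each transcription factor the 3 most alike by r over group means were named. The genes, lists and rules were chosen with earlier results of these data known. Alternatives were no experiment term, arrays as units, groups of a contrast alone, other filters, probe set means, other eBayes settings, array shifts, quantile normalization, and leaving out experiments or arrays.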

Additional observations from a re-analysis of the deposited data

Results flagged for a closer look

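In the first VDH15 experiment on OA diet, 1 array of Tcf4 lay apart from the other 3: it read 9.13 against 9.31 to 9.34, a gap of 0.86 of the group's range. Of 30 groups of 4 arrays tested for the 10 genes, 1 was marked in this way, and chance marks about 1 in 20.

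For 4 of the 10 genes, Snai2, Zeb1, Tcf4 and Zfp521, 2 experiments gave opposite differences without overlap of arrays under the same comparison. These differences between experiments were not tested. Of all 12823 genes, 4.21% showed such opposite separation for PA against control in PLKO tumours (1 of the 10), 2.6% for the same diets in shCD36 tumours (2 of the 10) and 4.04% for shCD36 against PLKO on control diet (2 of the 10). On PA against control diet in PLKO tumours, Snai2 was lower in the first VDH15 experiment (−0.984) and higher in SCC25 (0.2). On PA against control diet in shCD36 tumours, Zeb1 was higher in SCC25 (0.664) and lower in the second VDH15 experiment (−0.76), and Tcf4 was higher in SCC25 (0.157) and lower in the second VDH15 experiment (−0.305). On control diet with shCD36 against PLKO, Zfp521 was higher in SCC25 (1.06) and lower in the second VDH15 experiment (−0.331), and Tcf4 was higher in SCC25 (0.229) and lower in the second VDH15 experiment (−0.17).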

How the results depend on the processing

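No value that was called changed its direction under the alternatives run. For PA over control diet in PLKO tumours, 8 of the 10 genes passed (main 5) with no replicate block, that is without the experiment term, 8 with arrays as units and the group as a random block (duplicateCorrelation), and 0 with the groups of the comparison fitted alone, and leaving out an experiment or an array gave 0 to 5. These fits called 3001, 3052 and 34 genes against 887. For shCD36 over PLKO on PA (main 1), the same 3 fits gave 4, 5 and 0, the mean of all probe sets 0, the 3 outlying arrays left out 0, and leaving out an experiment or an array 0 to 2. For the difference of diet effects (main 0), no replicate block gave 4, arrays as units 5 and leaving out an experiment or an array 0 to 1. For PA over OA (main 1), no replicate block gave 7, arrays as units 8, robust eBayes 0, the 3 outlying arrays left out 0 and leaving out an experiment or an array 0 to 2. The counts over all genes are set beside these fits here for the first comparison only. The counts of the other comparisons are therefore not read as a result about the 10 genes. The cause of these changes was not tested. Both other filters, the intensity trend, shifts to the same median and quantile normalization left all these counts as they were.

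Some uncalled values changed direction. For PA over control in shCD36 tumours these were Prrx2 with arrays shifted to the same median (0.00108) or quantile normalization (0.00311), and other probe sets of Zeb1 (0.0878), Zeb2 (0.0142), Zfp521 (0.0507) and Tcf4 (0.0644). For shCD36 over PLKO on control diet, the groups alone gave Twist1 −0.00693 and Snai1 −0.0277. With an experiment or array left out, the ranges for PA over control in shCD36 tumours were −0.0878 to 0.0361 (Prrx2), −0.0147 to 0.0724 (Twist1), −0.76 to 0.664 (Zeb1), −0.0642 to 0.156 (Snai1), −0.0873 to 0.21 (Snai2), −0.516 to 0.258 (Zfp521) and −0.305 to 0.157 (Tcf4). For shCD36 over PLKO on control diet they were −0.00693 to 0.13 (Twist1), −0.066 to 0.889 (Zeb1), −0.0277 to 0.341 (Snai1), −0.00599 to 1.00 (Zfp521) and −0.0608 to 0.275 (Tcf4). The OA comparison could not be fitted with its groups alone, as no residual degrees of freedom remain. Array numbers did not pair the arrays (median r of same-numbered deviations 0.0291, 0.0277 and −0.0474 in the 3 experiments). A replicate block by array number cannot move differences within experiments, since each group holds the same numbers.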
